A study of Mus musculus with 24 samples.

Results

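Tumours of the mouse cortex were ordered by a score of oligodendrocyte progenitor transcripts, and the 8 with the highest score were compared with the 8 with the lowest, 16 of 24 tumours in all. The members were chosen by measured values: the score was the mean log2 value of Olig1, Olig2, Sox10 and Pdgfra, each read from its brightest probe set that names a single gene; Cspg4, the fifth gene of the rule, has no probe set named in the annotation used here, so the score rests on 4 of 5 genes. Each tumour was excised from the cortex and its total RNA was measured on 1 single-colour Affymetrix array. The tumours grew from cells expressing 1 of 3 class genes: RAB3A, a small GTPase of synaptic vesicles, in 6 tumours, BC74C, which is not an approved gene symbol, in 9, and ZNF668, a zinc finger protein, in 9. Strain, age and the cell that carried the class gene are not given in the sources used here, and no tumour without a class gene was analysed. The high-score group held 5 ZNF668 tumours (replicates 1, 2, 6, 7 and 8), 2 BC74C tumours (replicates 2 and 9) and 1 RAB3A tumour (replicate 6). The low-score group held 5 BC74C tumours (replicates 1, 4, 6, 7 and 8), 2 RAB3A tumours (replicates 4 and 5) and 1 ZNF668 tumour (replicate 9). Replicate numbers follow the order of deposit and carry no order of their own.

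Oligodendrocyte progenitors are glial cells that divide in the adult brain and give rise to the myelinating oligodendrocytes. Olig1, Olig2 and Sox10 are transcription factors of that lineage, Pdgfra is the receptor through which PDGF-A drives progenitor division, and Cspg4 is the NG2 proteoglycan of the progenitor surface. In gliomas many tumour cells carry this progenitor programme beside astrocytic or neural stem programmes, and OLIG2 and PDGFRA are widely used to recognise it.

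The deposited values were log2 values on a shared scale, with array medians between 4.98 and 5.19. Of 17097 genes with a probe set, 13214 were tested after dim genes and the 4 score genes were left out. Precision is limited by the number of arrays. Nothing in the labels ties the tumours to separate animals, and a p-value therefore measures only the spread between these samples. In bulk tissue, fewer cells of a type and less RNA per cell cannot be told apart. Sample titles carry the prefix elw (18 tumours) or mmr (6 tumours), and what it marks is not stated.

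The score and its genes, described here without a test because they chose the tumours, did not separate the groups equally. The 4 genes varied together only in part over the 24 tumours. Pearson correlations were 0.50 for Olig1 with Olig2, 0.48 for Olig2 with Pdgfra, and between -0.15 and 0.19 for the other pairs. A high score is therefore a mean of partly unrelated values. The score ran from 9.21 to 9.90 in the high-score tumours (median 9.57, mean 9.54 ± 0.25, SD, n = 8), from 8.65 to 9.14 in the middle 8 and from 7.44 to 8.58 in the low-score tumours (mean 8.22 ± 0.38, SD, n = 8). The order had no gap at either edge: ZNF668 replicate 7 was included at 9.21 and ZNF668 replicate 3 left in the middle at 9.14, and BC74C replicate 6 was included at 8.58 and RAB3A replicate 1 left in the middle at 8.65. Olig2 was the only score gene whose groups did not overlap, with 10.93 to 12.10 (median 11.46) in high-score and 7.22 to 10.90 (median 9.70) in low-score tumours. Olig1 ran from 12.76 to 13.26 and from 10.55 to 12.98. Sox10 overlapped broadly, from 6.91 to 9.45 (median 8.12) against 6.27 to 8.996 (median 7.33), and only 3 of the 8 high-score tumours were among the 8 with the most Sox10 while 2 were among the 8 with the least. Pdgfra was dim throughout, from 4.55 to 6.35 in high-score and from 3.59 to 4.94 in low-score tumours. Single tumours combined the genes unevenly: low-score BC74C replicate 6 had 12.98 for Olig1 and 10.90 for Olig2 but 6.27 for Sox10, and middle-score RAB3A replicate 3 had the highest Pdgfra value and the lowest Olig1 value, 8.44, of all 24.

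**Figure D1:**
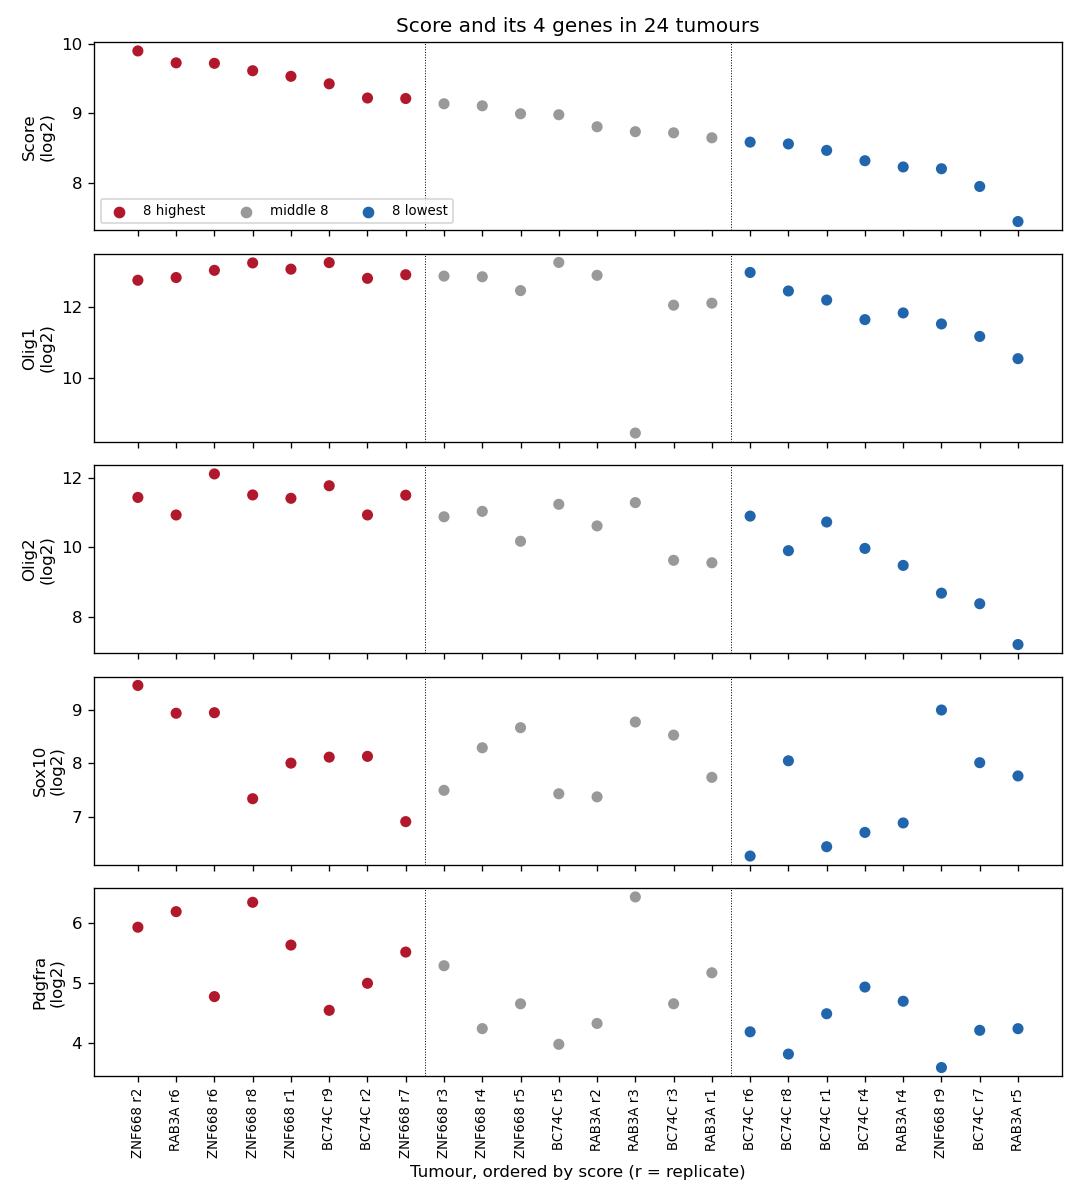
Log2 values of the score (top panel) and of Olig1, Olig2, Sox10 and Pdgfra in each of 24 tumours, ordered from left to right by score; red marks the 8 highest, grey the middle 8 and blue the 8 lowest. Olig2 falls most steadily along the order, Sox10 overlaps between red and blue, and Olig1 has 1 outlying grey point at 8.44.

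The labels of the 2 groups were compared first. The class gene differed between them in count, 5 ZNF668 against 1 and 2 BC74C against 5, but the chi-square of 4.29 was not larger than other splits of these 16 labels often gave (exact permutation p = 0.20047, all 12870 splits). By tumour label the high-score group held 3 ependymoma, 3 HGG (not spelled out in the labels), 2 TUMOR and 0 UNKNOWN, and the low-score group 3, 1, 1 and 3 (chi-square 4.33, exact permutation p = 0.343). Titles began with mmr in 4 of 8 high-score and 2 of 8 low-score tumours, and in 0 of the middle 8. The class gene was a covariate in every comparison of genes below, unless a setting says otherwise.

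High-score tumours had more RNA of Gpr17, Vcan, Prss35 and the collagen IX genes Col9a1 and Col9a3, and less of Crhbp, Ccn3, A2ml1 and Mtus2. With limma, 476 of 13214 genes passed a Benjamini-Hochberg adjusted p of 0.05, which is 3.6% of all tested: 378 higher (2.86%) and 98 lower (0.742%). The genes were not separated by wide margins, since every high-score tumour lay above every low-score tumour for only 34 genes (0.257%) and below for 6 (0.0454%), of which 26 and 4 were called. At an unadjusted p under 0.05 there were 3737 genes (28.3%), and the median difference over all genes was 0.09 on the log2 scale. The difference was positive for 7586 of the 13214. Counts of called, positive and unadjusted members of gene lists below are to be read beside these shares. Genes are not independent of each other, so the 3737 do not count separate changes. Within elw titles the plain difference had the sign of the call for 375 of 378 and 98 of 98 called genes, and within mmr titles for all of both, where 7816 and 7302 of the 13214 tested genes were positive. These are the tumours the calls were made on, so the counts are a description only.

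The middle 8 tumours played no part in the fit. Across them, the slope on the score had the sign of the call for 317 of the 378 genes called higher (83.9%, against 50.8% of all tested genes with a positive slope) and for 87 of the 98 called lower (88.8%, against 49.2%). The mean of the middle tumours lay between the means of the other groups for 337 of the 378 (89.2%) and 77 of the 98 (78.6%), against 42.3% of all tested genes. Called genes were chosen for a gap between the high-score and low-score means. A middle mean therefore falls inside it more readily than for all tested genes, and the 42.3% is not a like measure. Genes are not independent of each other, so these shares describe the middle tumours and carry no test.

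The count of calls depended on single score genes and on single tumours. With Pdgfra left out of the score it was 1 and with Olig2 left out 5, against 616 without Olig1 and 2070 without Sox10. It was 0 by limma without RAB3A replicate 6 (3223 at an unadjusted p under 0.05) and without ZNF668 replicate 9 (1611 unadjusted), 44 without BC74C replicate 7 and 109 without ZNF668 replicate 2. It was 120 without BC74C replicate 9, 130 without ZNF668 replicate 7, 138 without BC74C replicate 8, 151 without ZNF668 replicate 6, 157 without RAB3A replicate 5 and 162 without RAB3A replicate 4. It was 179 without ZNF668 replicate 8, 198 without ZNF668 replicate 1 and 220 without BC74C replicate 4, and it rose to 1459 without BC74C replicate 1 and 1721 without BC74C replicate 6. The direction of all 476 genes was kept in each of these fits. ZNF668 replicate 9 was the only low-score ZNF668 tumour and RAB3A replicate 6 the only high-score RAB3A tumour. With the class gene as covariate, omitting either takes every tumour of its class gene out of the contrast. Values given without either tumour, here and below, therefore leave out more than a single array. The mature neuron and Y-linked transcripts moved with the score groups. The mean of 20 mature neuron genes was 7.25 ± 1.19 (SD, n = 8) in high-score and 9.15 ± 1.38 (SD, n = 8) in low-score tumours, and the mean of the Y-linked Eif2s3y, Kdm5d and Uty was 7.68 ± 0.97 and 5.98 ± 1.71. With the neuron mean as an added term limma called 0 genes (1412 unadjusted), and with the sex-linked transcripts as an added term 0 (1361 unadjusted); the sign of all 476 differences was kept in both.

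**Figure D2:**
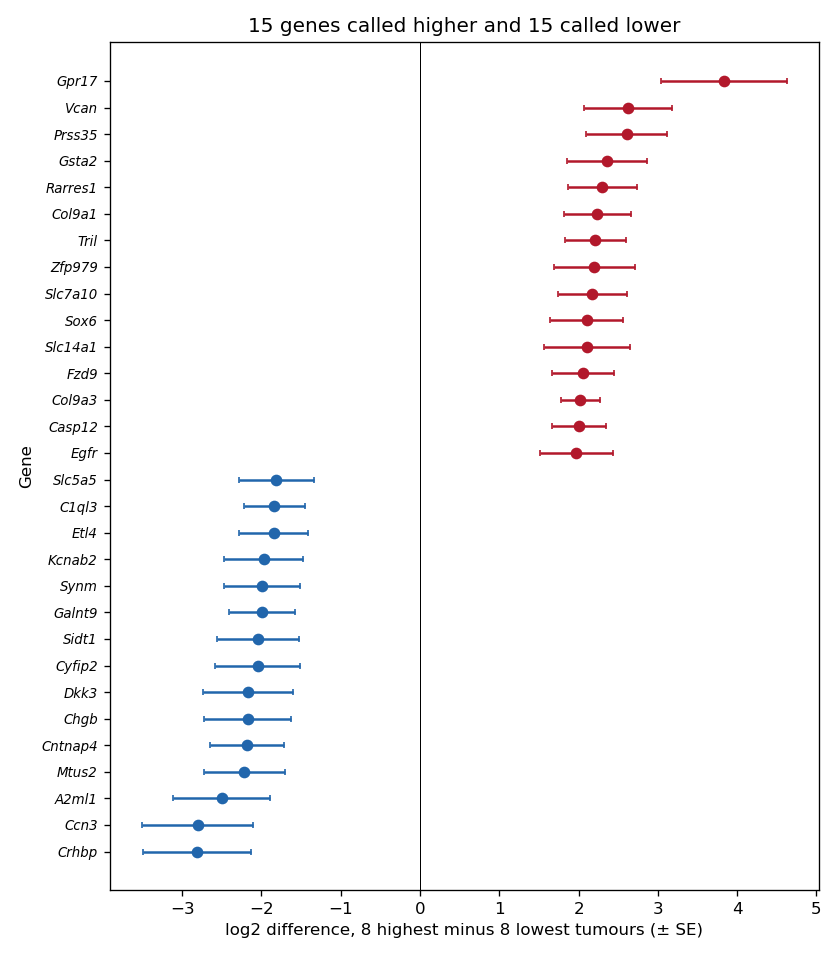
Log2 difference of the 8 highest minus the 8 lowest tumours, with its standard error, for the 15 called genes with the largest positive and the 15 with the largest negative difference. Gpr17 at 3.83 lies farthest to the right, Col9a3 has the shortest error bar (SE 0.24), and the genes that fell lie between -1.81 and -2.81.

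Gpr17, an orphan receptor that marks progenitors committed to become oligodendrocytes, had the largest difference of all called genes. It ran from 7.67 to 11.41 (median 8.89) in high-score and from 3.99 to 7.99 (median 5.80) in low-score tumours, and only the highest low-score tumour, BC74C replicate 6, reached into the high-score range. The difference was 3.83 (SE 0.79, limma adjusted p = 0.0323), 5.42 within ZNF668, 1.82 within BC74C and 6.15 within RAB3A tumours. Within ZNF668 the low side is replicate 9 alone, and within RAB3A the high side is replicate 6 alone. In the middle tumours Gpr17 ran from 6.74 to 11.48, so it did not mark the high-score group alone.

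Col9a3, a chain of collagen IX, had the smallest p of all genes. It ran from 8.07 to 9.60 (median 8.99) in high-score and from 6.46 to 7.68 (median 7.003) in low-score tumours, with no overlap. The difference was 2.02 (SE 0.24, limma adjusted p = 0.00758), and 1.97 within ZNF668, 2.03 within BC74C and 2.06 within RAB3A tumours. The ZNF668 value rests on replicate 9 alone as the low side and the RAB3A value on replicate 6 alone as the high side. Col9a1, the partner chain, rose by 2.23 (SE 0.42, limma adjusted p = 0.0285), from 4.67 to 6.22 in low-score up to 6.40 to 8.90 in high-score tumours, again without overlap. Vcan, the large proteoglycan versican, ran from 8.85 to 11.39 (median 10.22) against 5.66 to 9.46 (median 7.72) and rose by 2.62 (SE 0.56, limma adjusted p = 0.0329). In Vcan the groups overlapped through low-score BC74C replicate 1, at 9.46. Its difference was 1.05 within BC74C and 4.72 within ZNF668 tumours, where the low side is replicate 9 alone.

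Prss35, a secreted protein of the serine protease family, ran from 7.75 to 9.59 (median 8.93) in high-score and from 4.30 to 7.94 (median 6.23) in low-score tumours and rose by 2.61 (SE 0.51, limma adjusted p = 0.0289). Gsta2, a glutathione S-transferase, ran from 4.20 to 9.70 (median 7.83) against 3.41 to 4.79 (median 3.62) and rose by 2.36 (SE 0.51, limma adjusted p = 0.0345). Its values fell into 2 levels within the high-score group: the 2 BC74C tumours had 4.20 and 4.49, and the ZNF668 tumours and RAB3A replicate 6 had 7.56 to 9.70. The middle tumours showed the same levels, with ZNF668 tumours at 7.34 to 8.25 and the others at 3.56 to 3.78. Its difference within BC74C tumours was 0.73. ZNF668 replicate 9, the low-score tumour of that class gene, had 4.79.

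The other named genes that rose covered transport, signalling and stress. Slc7a10, the Asc-1 amino acid transporter of astrocytes, rose by 2.17 (SE 0.44), and Slc14a1, a urea transporter, by 2.10 (SE 0.54). Egfr, the EGF receptor, rose by 1.97 (SE 0.46) and Fzd9, a Wnt receptor, by 2.06 (SE 0.40). Egfr differed by 0.26 within elw and by 3.90 within mmr titles, where the low side is ZNF668 replicate 9 and RAB3A replicate 5 alone. For Egfr 1 of 5 other probe sets had the opposite sign at -0.08. Tril, an accessory protein of Toll-like receptor signalling, rose by 2.21 (SE 0.39), Casp12, a caspase linked to stress of the endoplasmic reticulum, by 2.01 (SE 0.34), Rarres1, a retinoic acid responsive gene, by 2.30 (SE 0.44) and the zinc finger gene Zfp979 by 2.20 (SE 0.51). The limma adjusted p of these 8 genes lay between 0.0279 and 0.0487.

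**Figure D3:**
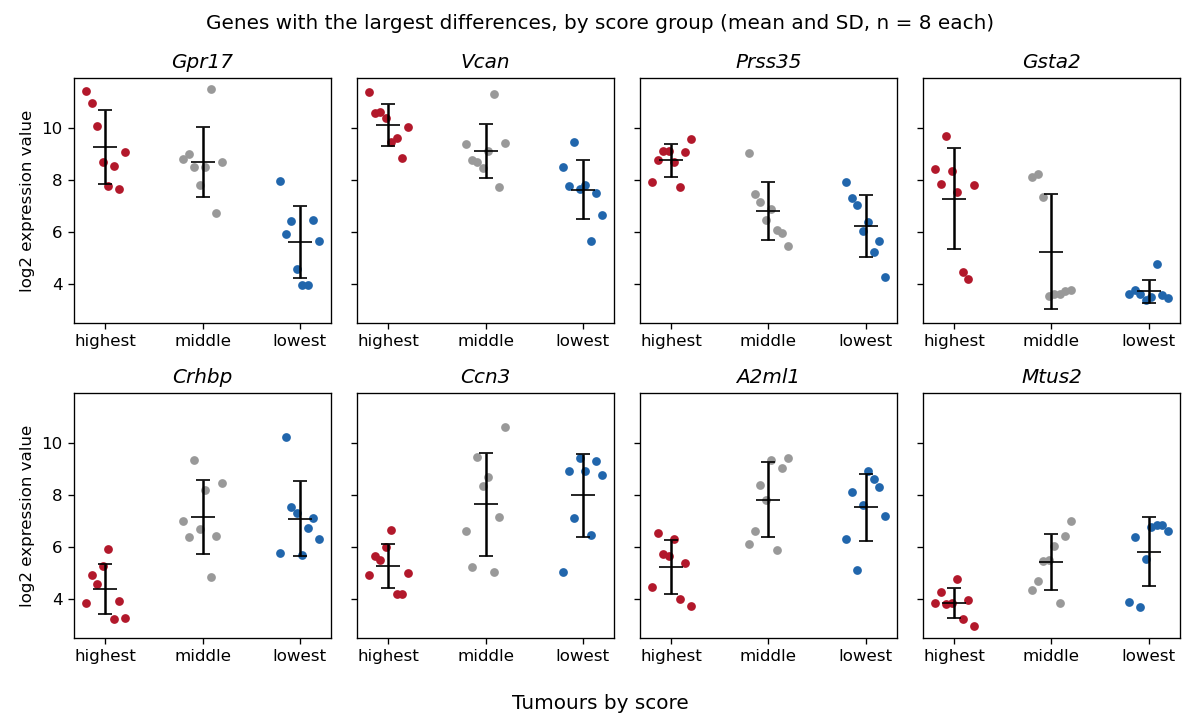
Log2 values of 8 genes in the highest, middle and lowest 8 tumours, each point a tumour, with the mean and SD of each group. The upper row holds the 4 genes with the largest rise and the lower row the 4 with the largest fall; Gsta2 splits the highest tumours into 2 levels and Crhbp has 1 low-score tumour at 10.22.

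The genes that fell most were Crhbp, Ccn3, A2ml1 and Mtus2. Crhbp, which binds corticotropin-releasing hormone and is made by cortical interneurons, ran from 3.26 to 5.94 (median 4.27) in high-score and from 5.73 to 10.22 (median 6.95) in low-score tumours, a difference of -2.81 (SE 0.68, limma adjusted p = 0.0439). Ccn3, a secreted matricellular protein, ran from 4.21 to 6.68 (median 5.27) against 5.06 to 9.45 (median 8.84), a difference of -2.81 (SE 0.70, limma adjusted p = 0.0468). The overlap in both came from a few tumours, and the middle tumours lay near the low-score ones, with means of 7.18 and 7.65. A2ml1, a protease inhibitor of the alpha-2-macroglobulin family, ran from 3.74 to 6.54 (median 5.53) against 5.13 to 8.94 (median 7.88) and differed by -2.50 (SE 0.61, limma adjusted p = 0.0443). Mtus2, a microtubule-associated protein, ran from 2.96 to 4.79 (median 3.87) against 3.71 to 6.88 (median 6.51) and differed by -2.21 (SE 0.51, limma adjusted p = 0.0401). The other 11 named genes fell by 1.81 to 2.18. Cntnap4, a contactin-associated protein of synapses, fell by 2.18, Chgb, a chromogranin of dense-core vesicles, by 2.17, and Kcnab2, a potassium channel subunit, by 1.97. C1ql3, a synaptic C1q-like protein, came nearest to separating the groups, at 6.48 to 8.01 in high-score and 7.83 to 10.91 in low-score tumours, a difference of -1.84 (SE 0.38, limma adjusted p = 0.0323). Dkk3, a secreted Dickkopf family protein, fell by 2.17, Cyfip2, of the actin-regulating WAVE complex, by 2.05, Galnt9, which starts O-glycosylation, by 1.99, and the intermediate filament gene Synm by 1.99. Sidt1, Etl4 and Slc5a5, the sodium-iodide symporter, differed by -2.04, -1.84 and -1.81. Each of the 15 genes named as lower overlapped between the groups, and leaving out each of the 16 tumours in turn ended these calls between 4 and 14 times, against 2 to 13 times for the 15 named as higher. Col9a3, Tril and Casp12 lost theirs 2 times each. Without ZNF668 replicate 9 the differences of Slc14a1, Egfr and Slc5a5 were 1.25, 1.27 and -1.11, and no other omission moved a gene named so far by over 1.5 times.

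Of 30 further progenitor genes, which took no part in the score, 24 were tested, and 7 were called higher and 0 lower, where 2.86% of all tested genes were called higher. With the class gene as covariate all 24 had a positive difference, with a median of 1.10 against 0.09 over all tested genes. The smallest differences were near 0: the plain means of Megf11 were 6.70 in high-score and 6.75 in low-score tumours. Their mean ran from 7.95 to 9.16 (median 8.66) in high-score and from 6.73 to 8.05 (median 7.31) in low-score tumours, with BC74C replicate 2 the lowest of the first and BC74C replicate 6 the highest of the second. In the middle tumours the mean ran from 7.62 to 9.27, and RAB3A replicate 3, with the least Olig1, had the highest mean of all. Without ZNF668 replicate 9 the median was 0.65, without RAB3A replicate 6 it was 0.92, and limma then called 0 genes in all, as given above. Within elw titles the median was 0.33 and within mmr titles 1.97, and among tumours labelled ependymoma it was 0.21 with 16 of 24 positive. With the class gene as covariate, the elw fit sets BC74C replicate 2 alone against BC74C replicates 1, 4, 6, 7 and 8. The ependymoma fit sets BC74C replicate 2 alone against BC74C replicates 1, 4 and 6. Both therefore rest on a single high-score tumour, here and for the list medians given below, and both lack ZNF668 replicate 9. The mmr fit has only 2 low-score tumours, ZNF668 replicate 9 and RAB3A replicate 5. BC74C replicate 9 has no low-score tumour of its class gene there, so it takes no part in that contrast. The mmr medians here and below rest on those 2 low-score arrays.

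By role, the transcription factors came first. Sox6, which holds progenitors in their immature state, ran from 9.18 to 10.19 (median 9.66) in high-score and from 5.83 to 9.54 (median 7.87) in low-score tumours and rose by 2.11 (SE 0.46, limma adjusted p = 0.0364). Sox8, a close relative of Sox10, rose by 1.85 (limma adjusted p = 0.0401) and Sox9, which acts earlier in glial fate and stays on in astrocytes, by 1.85 (limma adjusted p = 0.0403). Of 18 lineage regulators without the score genes these 3 were called higher and 0 lower, 13 were positive, and the median was 0.45. Over all tested genes 2.86% were called higher and 7586 of 13214 were positive. Without ZNF668 replicate 9, which had the lowest Sox9 value, the difference of Sox9 was 1.003. Nkx2-2, a partner of Olig2 in differentiation, differed by 0.76 (limma adjusted p = 0.278) and Zfp536, a differentiation-stage zinc finger gene, by -1.60 (adjusted p = 0.0761).

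At the cell surface and in the matrix, Bcan, the brain proteoglycan brevican, ran from 9.97 to 11.07 (median 10.11) against 7.95 to 10.03 (median 8.84) and rose by 1.38 (limma adjusted p = 0.0401). Lhfpl3, a membrane protein enriched in progenitors, was the progenitor gene without overlap: 9.23 to 10.71 (median 10.20) against 7.502 to 9.22 (median 8.27), a rise of 1.41 (limma adjusted p = 0.0289). Susd5 and Afap1l2 rose by 1.12 and 1.19. Cspg5 and Ptprz1, a proteoglycan and a receptor phosphatase of progenitors, differed by 0.997 and 1.01 without passing (limma adjusted p = 0.0586 and 0.0533), and Tnr and Pcdh15 by 1.20 and 1.45 (adjusted p = 0.15 and 0.0863). Among 21 chondroitin sulfate proteoglycans and their enzymes, Bcan, Vcan and Csgalnact1, an enzyme that starts chondroitin chains (1.07), were called higher and 0 lower. In this list 15 were positive, where 7586 of all 13214 tested genes were, and the median was 0.55. Kcnj16, an inward rectifier potassium channel, was the only one called of 17 channels and glutamate receptors found in progenitors, at 1.80; 8 of the 17 were positive and their median was -0.28, which turned positive in 4 alternatives (up to 0.43 with the neuron mean as an added term).

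For the receptors of growth factors, Egfr, Fgfr3 (1.40), Ntrk2 (1.29) and Ntrk3 (0.61) were called higher of 21 PDGF ligands and receptor tyrosine kinases. In this list 16 were positive, where 7586 of all 13214 tested genes were, and the median was 0.28. Fgfr3, Ntrk2 and Ntrk3 are receptors for fibroblast growth factors and for the neurotrophins. For Ntrk2, 4 of 6 other probe sets had the opposite sign, so the array gave no single direction for this gene; without ZNF668 replicate 9 its difference was 0.73. Pdgfc and Pdgfd, ligands of the PDGF receptors, differed by 0.58 and 1.65 (limma adjusted p = 0.0745 and 0.115). Downstream, 14 of 16 feedback and ETV target genes of the MAP kinase pathway were positive with a median of 0.87, but limma called 0 (8 at an unadjusted p under 0.05); Dusp6, the phosphatase induced by active ERK, differed by 1.24 (adjusted p = 0.0505) and Spry2, a feedback inhibitor, by 1.15 (adjusted p = 0.0557). Among tumours labelled ependymoma 5 of the 16 were positive and the median was -0.13.

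Genes of the later steps of the lineage were given as 2 further lists, and the lists were not tested against each other. Among 15 genes of committed oligodendrocytes only Gpr17 was called, 11 were positive and the median was 0.37; Myt1 differed by 1.30 (limma adjusted p = 0.0605) and Enpp6 by 1.25 (adjusted p = 0.348). Of 21 myelin genes limma called 0, with 0 also at an unadjusted p under 0.05, and 4 were positive with a median of -0.74. Mbp, myelin basic protein, ran from 6.80 to 12.56 (median 11.88) in high-score and from 7.87 to 13.76 (median 12.37) in low-score tumours, a difference of -0.56 (limma adjusted p = 0.747), and Mobp differed by -1.52 (adjusted p = 0.434). The sign of the myelin median was not stable: it was 0.16 without ZNF668 replicate 9, which had the highest myelin mean of all tumours at 10.36, 1.22 within elw and -2.37 within mmr titles, and 2.17 among tumours labelled ependymoma. It was also positive with the neuron mean as an added term (0.75), with the sex-linked transcripts as an added term (0.04), without the tumours labelled UNKNOWN (0.49) and among BC74C tumours alone (0.15). ZNF668 replicate 9 is labelled UNKNOWN and has an mmr title. It was therefore also absent from the elw, ependymoma, BC74C and without-UNKNOWN fits, whose values are not separate from the one without it. Nor are the elw and ependymoma values separate from each other. Both rest on BC74C replicate 2, which had the highest myelin mean of the high-score tumours, 8.70.

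**Figure D4:**
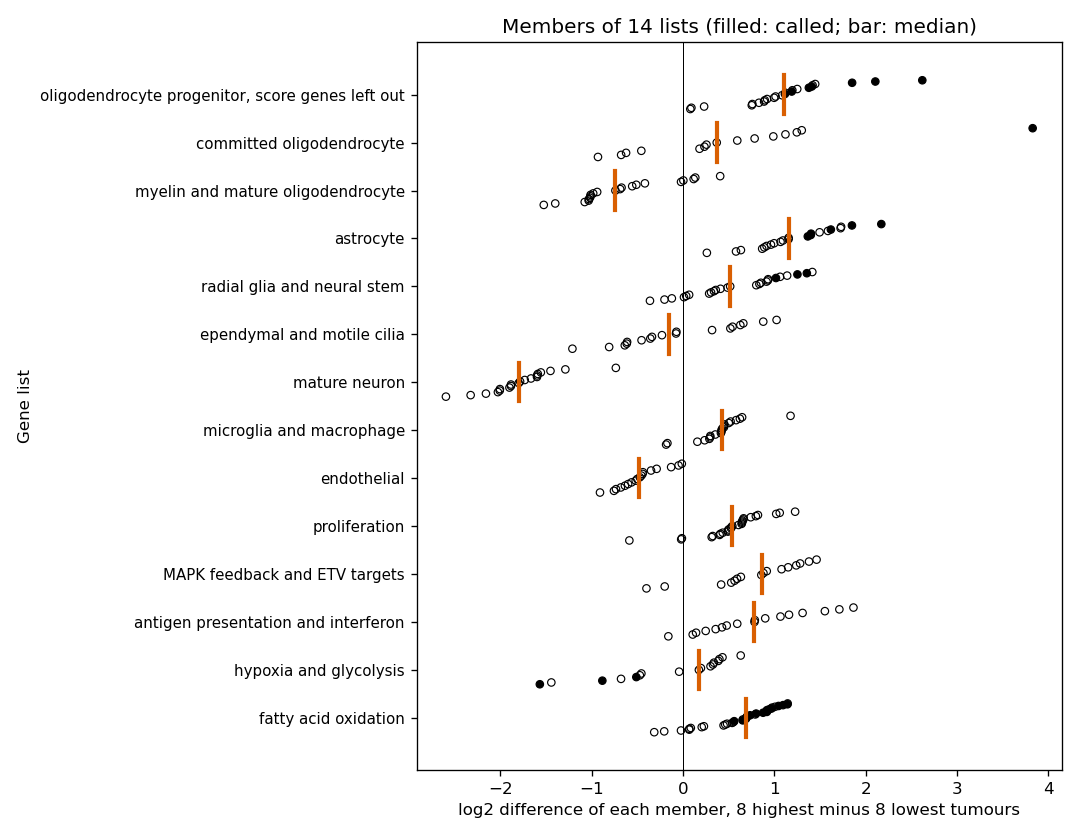
Log2 difference, highest minus lowest 8 tumours with the class gene as covariate, of each tested member of 14 gene lists. Filled points passed an adjusted p of 0.05 and the orange bar is the list median. All members lie right of 0 in the progenitor and astrocyte lists and left of 0 in the mature neuron and endothelial lists, where no point is filled.

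Astrocyte genes had differences as large as those of the remaining progenitor genes, and the groups are therefore called by their score here and not as a cell type. With the class gene as covariate all 22 tested astrocyte genes were positive with a median of 1.16, and 6 were called higher and 0 lower: Slc7a10, Sox9, Ppp1r3c (1.62), Itih3 (1.40), Fgfr3 and Acsbg1 (1.37). The plain mean of Aldh1l1 was lower in high-score tumours, 7.68 against 8.48, while those of the other tested members were higher. The defining markers Gfap (1.16, limma adjusted p = 0.101), Aqp4 (1.495, adjusted p = 0.0793) and Slc1a3 (0.91, adjusted p = 0.116) did not pass. The astrocyte mean ran from 9.21 to 10.71 in high-score, 9.51 to 10.67 in middle and 7.54 to 10.28 in low-score tumours, so the middle tumours were no lower than the high-score ones. Without ZNF668 replicate 9, which had the lowest mean, the median difference was 0.65, with all 22 still positive. In the radial glia and neural stem list, Sox2, the stem cell transcription factor (1.36, limma adjusted p = 0.0279), Notch1 (1.25) and Lifr, a cytokine receptor subunit (1.02), were called of 25 genes. Of these 25 genes 22 were positive and the median was 0.52. Over all tested genes 2.86% were called higher and 7586 of 13214 were positive. Among tumours labelled ependymoma 9 of the 25 were positive and the median was -0.22. The difference of Notch1 was 0.83 without ZNF668 replicate 9. Notch1 was the only one called of 19 Notch pathway genes and Smo (1.23) the only one of 15 Hedgehog genes. Beside that share, 1 call in a list of this size says little about the list.

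Mature neuron genes ran the other way. All 20 mature neuron genes had a negative difference with a median of -1.79, but limma called 0 of them (11 at an unadjusted p under 0.05); Cck, a cortical neuropeptide, differed by -2.60 (adjusted p = 0.109) and Rbfox3, the NeuN antigen, by -2.16 (adjusted p = 0.143). The mean of the list ran from 4.77 to 8.73 (median 7.44) in high-score and from 6.69 to 10.24 (median 9.71) in low-score tumours, where BC74C replicates 6 and 1 held the 2 lowest low-score values. The median was -0.87 within elw titles, -2.85 within mmr titles, -1.12 without ZNF668 replicate 9 and 0.01 among tumours labelled ependymoma. The 15 neuronal progenitor genes were mixed, with 4 positive and 11 negative, differences from -1.71 to 1.23 and a median of -0.38. The plain mean of Sox4 was 12.08 in high-score and 10.89 in low-score tumours. Stmn1, a tubulin-binding protein of immature neurons and dividing cells, was the only one called of the 15. It ran from 10.98 to 11.71 (median 11.60) in high-score and from 11.73 to 12.81 (median 12.14) in low-score tumours, without overlap. Its difference was -0.76 (limma adjusted p = 0.0467), and -0.50 without ZNF668 replicate 9. Whether the neuronal share of the sampled tissue had a part in the calls was not tested beyond the fit with the neuron mean as an added term.

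**Figure D5:**
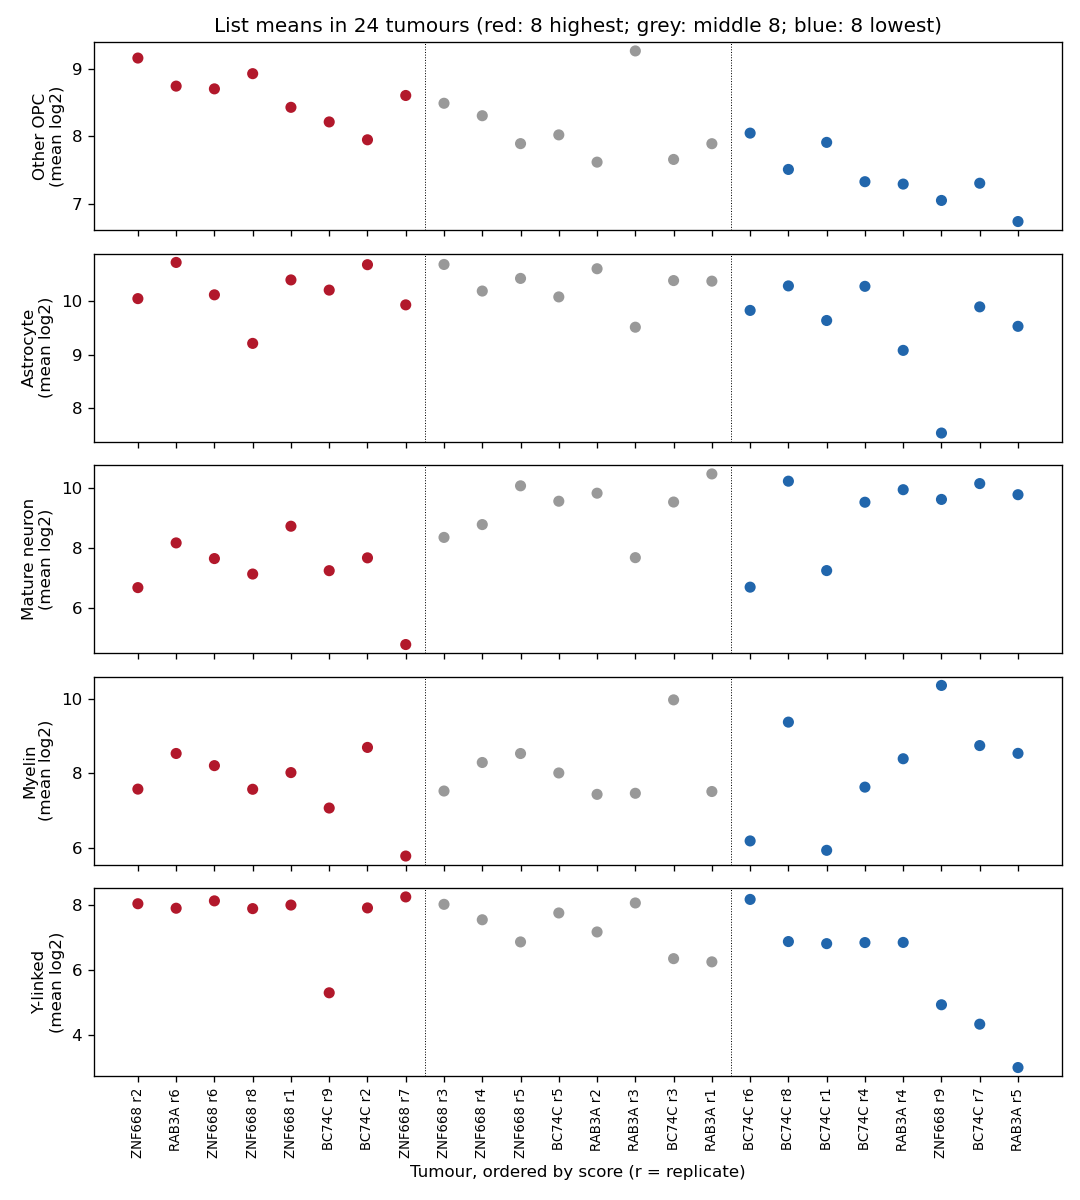
Mean log2 value of the remaining progenitor genes (other OPC), astrocyte, mature neuron, myelin and Y-linked genes in each of 24 tumours, ordered by score. The progenitor mean falls along the order, neuron means are lowest among the red high-score tumours, and ZNF668 replicate 9 stands apart with the highest myelin mean and the lowest astrocyte mean.

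Markers of other cells moved little or without a call. With the class gene as covariate all 18 endothelial genes were negative (median -0.49) and 19 of 21 microglia and macrophage genes positive (median 0.42). Limma called 0 in either list (2 and 1 at an unadjusted p under 0.05). The plain list means were close, 6.86 in high-score and 6.97 in low-score tumours for endothelial genes and 8.55 and 8.45 for microglia and macrophage genes. Plain endothelial signs were mixed, with Eng at 7.03 against 6.82 and Pecam1 at 4.54 against 4.89. ZNF668 replicate 9 had the highest endothelial mean, 8.42, and the endothelial median was 0.25 within elw titles and 0.11 among tumours labelled ependymoma. Antigen presentation and interferon genes had 16 of 17 positive with a median of 0.78 and 0 called by limma (5 unadjusted), and Gbp2, an interferon-induced GTPase, was nearest at 1.31 (limma adjusted p = 0.0524). Cell cycle genes had 24 of 27 positive with a median of 0.54 and 0 called by limma (1 unadjusted), and their median was -0.83 with the neuron mean as an added term, -0.47 among tumours labelled ependymoma and -0.06 without the tumours labelled UNKNOWN. Motile cilia genes, which mark the ependymal lineage, had 7 of 18 positive with a median of -0.15 and 0 called by limma. At an unadjusted p under 0.05 there were 5, which is near the 28.3% of all tested genes. Their median was positive in 9 alternatives, among them 0.77 within elw titles, 0.97 among tumours labelled ependymoma and 0.17 without RAB3A replicate 6. Tnfrsf1a, a receptor for tumour necrosis factor (0.99), was the only one called of 22 mesenchymal glioma genes, where 2.86% of all tested genes were called higher. Limma called 0 genes in the lists for cholesterol (16 tested, 1 at an unadjusted p under 0.05), Hox (9, 1), NF-kappaB (18, 1), red blood cells (3, 0), choroid plexus (12, 1), pericytes and fibroblasts (15, 2) and T and NK cells (9, 0). In the hypoxia and glycolysis list 3 of 17 genes were called lower, where 0.742% of all tested genes were, and 0 higher. They were Ndrg1, a stress-induced gene that mature oligodendrocytes also express (-1.57), Pfkp, a phosphofructokinase (-0.88), and Pkm, pyruvate kinase (-0.51). The list as a whole did not fall, with 9 positive and 8 negative differences and a median of 0.17. Xist, the RNA that coats the inactive X, differed by -1.29 (limma adjusted p = 0.0909), and Eif2s3y, Kdm5d and Uty, from the Y chromosome, by 1.65, 1.41 and 1.64. Xist ran from 8.67 to 10.84 in high-score and from 9.80 to 12.21 in low-score tumours. Eif2s3y ran from 6.16 to 9.28 (median 8.72) and from 3.11 to 8.64 (median 7.43). Many tumours thus held both kinds of RNA, and the values assign no single sex to each tumour. The part of these transcripts in the calls was not tested beyond the fit with them as an added term. Of the class genes' own mouse transcripts, Rab3a, which neurons express, differed by -1.75 (limma adjusted p = 0.0718), Bcl7c, examined only as a candidate for BC74C, by 0.46 and Zfp668 by -0.15.

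Promoters of the called genes were searched for 2 short words, AACAAT, of the kind bound by Sox factors, and CAGCTG, an E-box of the kind bound by Olig and other basic helix-loop-helix factors. Each was counted on both strands of the 250 bases before the start of the first promoter listed for a gene by RefSeq (GRCm38.p6). AACAAT was found in 6.45% of 310 promoters of genes called higher, 8.86% of 79 of genes called lower and 5.4% of all 10627 promoters of tested genes. CAGCTG was found in 12.9%, 6.33% and 12.1%. The words were thus about as common in genes called higher as in all genes. The promoters of Lhfpl3 (chr5:22745804-22746053, plus strand) and Tril (chr6:53820826-53821075, minus strand) are shown because both genes rose and their windows hold the E-box word, in capitals, which describes the letters only.
Lhfpl3: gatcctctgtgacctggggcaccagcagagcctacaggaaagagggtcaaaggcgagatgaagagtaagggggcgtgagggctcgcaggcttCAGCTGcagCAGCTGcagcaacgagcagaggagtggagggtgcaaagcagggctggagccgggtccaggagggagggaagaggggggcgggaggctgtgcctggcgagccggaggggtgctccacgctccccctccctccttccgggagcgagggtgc
Tril: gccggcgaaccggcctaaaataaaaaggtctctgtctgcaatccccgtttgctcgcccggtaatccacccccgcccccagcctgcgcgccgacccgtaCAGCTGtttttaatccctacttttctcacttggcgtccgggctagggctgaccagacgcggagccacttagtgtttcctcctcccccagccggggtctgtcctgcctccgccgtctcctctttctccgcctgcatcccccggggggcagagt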

How the data were processed

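Trizol-extracted total RNA was biotin-labelled for Affymetrix arrays, per the labels' protocols. The authors deposited log2 values of 45141 probe sets in every tumour; Partek 6.6 was used, per the submitters' processing notes, and the background correction and normalization are not given in the sources used here. That the deposited values are log2 was read from their range, 2.40 to 13.85. A normalization that equalises arrays can mask a shift common to most genes.

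Without the 104 controls, 28898 name 1 gene in the platform annotation, 551 several and 15588 none; 28689 matched a RefSeq table (GRCm38.p6) by Entrez identifier. Each of 17097 genes was read from its brightest single-symbol probe set, and genes below the 30th percentile of probe set means (3.76) were dropped, leaving 13218 and, without the 4 score genes, 13214. The rule names 5 score genes; Cspg4 has no probe set named in the annotation, so 4 were averaged.

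High-score minus low-score tumours were compared with limma 3.58.1 in R 4.3.3 (lmFit, eBayes with trend, two-sided, Benjamini-Hochberg over all 13214 genes, threshold 0.05), with the class gene as covariate, on 16 tumours. Labels were compared by exact permutation of the chi-square. Named genes are the 15 called with the largest difference in each direction, called members of the lists, and members given as examples of uncalled ones, the last chosen with their values in view. The score genes, the 31 gene lists (592 genes, 525 measured, 470 tested) and the members were chosen with earlier results of these data known, and a list of fatty acid oxidation genes was added after the values were seen. On simulated data with 200 of 13214 genes changed, the fit found 52% of genes with a true log2 difference of 1 and 81% with 2, at 10 false calls, with noise drawn independently for each gene. Alternatives changed the covariates, tumours, filter, scaling, probe set, score and fit. Python 3.11.15, pandas 2.3.3 and matplotlib 3.10.9 served for summaries and plots.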

Additional observations from a re-analysis of the deposited data

Results flagged for a closer look

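Within the groups of 8, 8 of 100 value sets held a tumour far from the other 7, where about 5 are expected by chance at 1 in 20. Among low-score tumours Gsta2 was 4.79 in ZNF668 replicate 9, above the others, and Crhbp was 10.22 in BC74C replicate 8, above the others. Chgb was 8.31 in low-score BC74C replicate 1 and Etl4 was 6.48 in low-score BC74C replicate 6, each below the others. ZNF668 replicate 9 also had the lowest astrocyte mean, 7.54, and the highest endothelial mean, 8.42, of the low-score group. Among high-score tumours Tril was 9.13 in ZNF668 replicate 8, below the others. The Y-linked mean was 5.31 in BC74C replicate 9, the only high-score tumour far below the rest.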

How the results depend on the processing

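The count of 476 genes was 207 with no filter on dim genes, 232 with arrays centred on their medians, 278 from all 24 tumours with a 3-level factor, 253 with the most variable probe set of each gene and 172 with the microglia mean as an added term. It was 1788 with array weights, 1556 with the score as a continuous term over 24 tumours, 1630 for the 10 highest against the 10 lowest and 782 with the proliferation mean as an added term. Array weights gave 988 higher and 800 lower. Leaving a gene out of the score gave 5 without Olig2, 1 without Pdgfra and 2070 without Sox10. Limma called 12 within elw titles, 0 of them among the 476 (562 at an unadjusted p under 0.05), and 0 within mmr titles (2831 unadjusted), among ependymoma (518 unadjusted), without HGG (2405 unadjusted), with the tumour label as an added term (2006 unadjusted), with the neuron mean (1412 unadjusted) and with the sex-linked transcripts (1361 unadjusted). It also called 0 in the 2 alternatives added after seeing the data, without tumours labelled UNKNOWN (1193 unadjusted) and among BC74C tumours alone (776 unadjusted). Leaving out 1 tumour gave 0 to 1721. The other settings (no covariate, title prefix, 50th percentile filter, quantile normalization, no trend, 6 against 6, z-scored score, score without Olig1) stayed within 1.5 times of 476 in total, but the genes called lower were 199 with no covariate, 189 without Olig1 and 57 without the trend, against 98, and with no covariate 269 of the 476 were still called. Of the called genes, Zfp979 was -0.11 and Notch1 -0.15 among ependymoma, and Ntrk2 was -1.35 with the most variable probe set. The direction of the 476 was kept for 473 within elw, 460 among ependymoma and 464 of the 474 present with the most variable probe set. The cause of these changes was not tested. In the elw and ependymoma fits BC74C replicate 2 was the only high-score tumour that shared its class gene with a low-score tumour. No paired analysis was possible because the labels carry no replicate numbers. The choice of background correction could not be varied, and signal over background was not assessed, so dim values such as those of Pdgfra are the least certain.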

Other observations

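Genes of fatty acid oxidation, both mitochondrial and peroxisomal, with the regulator Ppara, form a list put together after the values were seen, which is therefore given without any test of the list. Of 35 tested genes 32 were positive with a median log2 difference of 0.69, against 0.09 over all tested genes, and 14 were called higher and 0 lower, where 2.86% of all genes were called higher. Decr1, an auxiliary enzyme for unsaturated fatty acids, ran from 9.36 to 10.06 (median 9.46) in high-score and from 7.87 to 9.66 (median 8.82) in low-score tumours and rose by 1.14 (limma adjusted p = 0.0174). Hadhb, a subunit of the trifunctional protein, rose by 0.92 (limma adjusted p = 0.0174), Acadvl, the very long chain acyl-CoA dehydrogenase, by 0.88 (adjusted p = 0.0197), and Slc25a20 and Cpt2, of the carnitine shuttle, by 0.94 and 0.97. Etfa and Etfdh, which pass the electrons on, rose by 0.92 and 1.05. Cpt1a, the entry step of the shuttle, differed by 0.97 without passing (adjusted p = 0.0607), and Acad9 by -0.32. The list median lay between 0.33 and 0.85 over 45 settings, with 25 to 34 genes positive, and it was 0.55 without ZNF668 replicate 9 and 0.61 without RAB3A replicate 6, where limma called 0 of its genes. Astrocyte genes moved with the same groups, and their part in these values was not tested.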
